A study of Homo sapiens with 10 samples.

Results

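The genes examined here are the endosomal deubiquitinase STAMBP, its paralog STAMBPL1 and 5 genes whose products work with STAMBP on endosomes, namely HGS, STAM, STAM2, USP8 and CLTC. They were chosen by symbol in the deposited table of gene counts, in which each stood on a row of its own, 7 of 60898 rows. The counts came from 10 RNA-sequencing libraries of cells labelled NPC, read here as neural progenitor cells, that derive from the established human embryonic stem cell line H1. The 5 groups held 2 libraries each. They were cells with the genotype WT, the lines KO1 and KO2 with the genotype STAMBP-KO, and 2 groups labelled KO+STAMBP and KO+CFLAR, read here as knockout cells to which the named gene was added. CFLAR is an inhibitor of caspase-8 activation. The series title concerns the need for STAMBP in keeping neural progenitors over long culture. The labels give no edited site, no promoter for either added gene, no statement of which knockout line received it, and no word on whether the libraries of a group were separate cultures. The p-values below therefore measure the spread between libraries only, which may be technical.

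STAMBP, also called AMSH, is a zinc metalloprotease of the JAMM family that cuts ubiquitin chains from membrane proteins on the endosome. HGS and STAM or STAM2 form ESCRT-0, the complex that first captures ubiquitinated receptors there and hands them to the later ESCRT complexes, which sort them into vesicles bound for the lysosome. STAMBP and the cysteine protease USP8 both bind STAM proteins, and clathrin, whose heavy chain is CLTC, coats the same endosomal patches. Loss of STAMBP function in humans causes a syndrome of microcephaly with capillary malformations.

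Total counts ran from 16495116 to 20832700 per library. Levels are CPM, counts scaled to a library of 1000000 counts after TMM scaling, given per library or as mean ± SD, with n = 2 in each group and n = 4 where KO1 and KO2 are joined as the knockout. Defining markers of other cell types moved with the knockout. The summed level of 6 epithelial markers, among them KRT8 and CDH1, was 30.7 to 32.1 CPM in WT, 6486 to 6865 CPM in the knockout and 51.1 to 60.7 CPM in the libraries labelled KO+STAMBP or KO+CFLAR. The sum over 5 neuron markers was 3170.4 to 3265 CPM in WT, 684 to 708 CPM in the knockout and 4359 to 4576 CPM in the other 4 libraries. For 7 progenitor markers the sums were 4588 to 4809, 3153 to 3169 and 2459.5 to 2524 CPM. In the knockout most of that sum was VIM, at 2259 ± 12.3 CPM, and NES, at 661 ± 10.2 CPM. VIM was at 1333 ± 16.0 CPM in KO+STAMBP. FABP7 was at 1124 ± 41.1 CPM in WT, 0.446 ± 0.238 CPM in the knockout and 228 ± 3.35 CPM in KO+STAMBP. SOX2 was at 297 ± 0.425, 28.4 ± 1.36 and 190 ± 2.20 CPM in the same groups. SOX1 was at 147 ± 6.74 CPM in WT against 0.480 ± 0.125 CPM in knockout libraries, while PAX6 was at 181 ± 0.119 and 208 ± 3.95 CPM. For 4 mesenchymal markers, among them COL1A1 and TWIST1, the sums were 76.2 to 78.9, 2038 to 2116 and 76.4 to 98.8 CPM. Nearly all of the knockout sum was COL1A1 (1030 ± 25.4 CPM) and COL1A2 (1043 ± 10.2 CPM), while TWIST1 added 2.79 ± 0.439 CPM. COL3A1 differed little between WT (4.38 ± 0.439 CPM) and knockout (4.93 ± 1.01 CPM). Its level was higher in KO+STAMBP (13.3 ± 1.67 CPM) and in the libraries labelled KO+CFLAR (12.1 ± 1.27 CPM). By edgeR, 6 of 6 epithelial markers and 3 of 4 mesenchymal markers were called higher in the knockout, 5 of 5 neuron markers lower, and of the progenitor markers 5 lower and 1, PAX6, higher. Of all tested genes, 36.8% were called higher and 39.4% lower in that comparison with WT. The pluripotency pair POU5F1 and NANOG summed to 0.816 to 1.87 CPM over all libraries, and no marker of any list was at 0 in every library. The part of these marker differences in the results below was not tested. In bulk RNA, fewer cells of a type and less RNA per cell cannot be told apart. CFLAR counts in the libraries labelled KO+CFLAR went against their label, at 30.4 ± 1.35 CPM. CFLAR was at 32.1 ± 0.0409 CPM in KO+STAMBP, 32.3 ± 2.68 CPM in WT and 254 ± 8.11 CPM in knockout libraries. The sources used here do not say whether reads of an added gene were counted. Directions drawn from the libraries labelled KO+CFLAR rest on the label.

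STAMBP and STAMBPL1 are close enough in coding sequence that reads could in principle be shared, so the stretch most alike is shown first. Their longest coding sequences, of 1275 and 1386 bases in GENCODE release 29 (GRCh38), had 62.8% identical bases over 1257 aligned positions. The longest identical run is printed in capitals, with 25 bases of each gene's own coding sequence on either side:
STAMBP: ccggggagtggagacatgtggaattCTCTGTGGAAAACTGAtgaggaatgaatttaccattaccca
STAMBPL1: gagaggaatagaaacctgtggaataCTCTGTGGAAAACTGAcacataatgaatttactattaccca
The run has 16 bases, at coding positions 853 to 868 of STAMBP and 889 to 904 of STAMBPL1, and it spans an exon junction in both genes. Of the 7975 different 50-base words in STAMBP transcripts, 0 occurred in transcripts of any other gene. For STAMBPL1 it was 29 of 6270 words, or 0.463%, none of them shared with STAMBP. The STAM and STAM2 coding sequences, of 1623 and 1578 bases, were 67.9% identical over 1531 aligned positions, with a longest run of 21 bases in capitals:
STAM: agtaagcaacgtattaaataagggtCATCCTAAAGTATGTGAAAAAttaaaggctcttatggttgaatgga
STAM2: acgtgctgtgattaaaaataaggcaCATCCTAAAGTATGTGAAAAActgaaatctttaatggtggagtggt
This run lies at coding positions 301 to 321 of STAM and 304 to 324 of STAM2. The share of 50-base words found in other genes was 0% for STAM and 0.199% for STAM2. A read of that length from these transcripts therefore belongs to 1 paralog only, while the sources used here give no read length.

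The first comparison was knockout against WT, which asks what the lines labelled as lacking STAMBP do to the RNA of its partners. Both enzymes of the JAMM pair were lower in the knockout, to 41.1% of WT for STAMBP and 39.8% for STAMBPL1. All 5 partner genes were higher, at 154% of WT for STAM2, 156% for CLTC, 165% for STAM, 166% for USP8 and 196% for HGS. All 7 genes passed the filter on low counts, and all 7 were called by edgeR's quasi-likelihood test at a Benjamini-Hochberg adjusted p under 0.05. Of the 21063 genes tested, 76.2% were called in this comparison, 36.8% higher and 39.4% lower, so a call by itself does not set these genes apart. The median size of the log2 change was 0.73 over the 7 genes and 0.90 over all tested genes. The median log2 change was 0.64 against -0.04 over all tested genes.

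STAMBP (ENSG00000124356, chromosome 2, 73828916 to 73873659, plus strand, protein-coding) was at 43.4 and 47.2 CPM in WT, at 19.5 and 16.9 CPM in KO1 and at 19.2 and 18.9 CPM in KO2. It was at 40.4 and 45.3 CPM in KO+STAMBP and at 42.9 and 40.05 CPM in the libraries labelled KO+CFLAR. The 4 knockout libraries lay together, below the other 6 with no overlap, and still held 259 to 355 counts each. The log2 change from WT was -1.28 ± 0.07 (SE, edgeR adjusted p = 6.7e-10), with -1.31 ± 0.09 in KO1 and -1.25 ± 0.09 in KO2. Transcript of the targeted gene was thus still counted in both knockout lines, and the counts per gene do not show which exons it came from. Among all tested genes, 38.6% had a larger change than STAMBP. The share of all tested genes whose groups separate without overlap, here and for the genes below, was not counted, and 76.2% were called.

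STAMBPL1 (ENSG00000138134, chromosome 10, 88879734 to 88975153, plus strand), which cuts the same kind of ubiquitin chain as STAMBP, was the least abundant of the 7 genes. It had 60 and 86 counts in WT, 22 to 31 counts in the 4 knockout libraries, 111 and 103 counts in KO+STAMBP and 136 and 130 counts in the libraries labelled KO+CFLAR. In CPM this was 3.49 and 4.21 in WT, 1.38 and 1.43 in KO1, 1.52 and 1.79 in KO2, 5.73 and 5.51 in KO+STAMBP and 6.33 and 5.90 in the libraries labelled KO+CFLAR. The knockout libraries were lowest, WT came next and the 4 libraries labelled as given a gene were highest, with no overlap between these 3 tiers. Its log2 change in the knockout was -1.33 ± 0.19 (edgeR adjusted p = 1.28e-05), with a wider error than that of STAMBP. A paralog at higher RNA level in the knockout was not seen in any of the 4 libraries.

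USP8 (ENSG00000138592, chromosome 15, 50424380 to 50514419, plus strand), the other deubiquitinase that docks on STAM proteins, changed in the opposite direction to the JAMM pair. Its libraries were at 58.6 and 57.9 CPM in WT, 96.4 and 94.7 CPM in KO1, 92.6 and 102 CPM in KO2, 50.7 and 52.3 CPM in KO+STAMBP, and 49.0 and 48.6 CPM in the libraries labelled KO+CFLAR. Every knockout library was above every other library, and WT was above all 4 libraries labelled as given a gene. The log2 change in the knockout was 0.73 ± 0.05 (edgeR adjusted p = 3.05e-09).

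HGS (ENSG00000185359, chromosome 17, 81683326 to 81703138, plus strand), the ESCRT-0 subunit that binds endosomal lipid and ubiquitin, had the largest rise among the 7 genes. It was at 86.4 and 83.7 CPM in WT, 177 and 157 CPM in KO1, 169 and 163 CPM in KO2, 80.6 and 83.0 CPM in KO+STAMBP, and 85.3 and 84.3 CPM in the libraries labelled KO+CFLAR. The 6 libraries outside the knockout spanned only 80.6 to 86.4 CPM, and the lowest knockout library stood well above them. The log2 change was 0.97 ± 0.05 (edgeR adjusted p = 1.16e-10), and 47.4% of all tested genes changed by more.

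STAM and STAM2, the SH3-domain subunits of ESCRT-0 that STAMBP and USP8 bind, also rose. STAM (ENSG00000136738, chromosome 10, 17644125 to 17715914, plus strand) was at 78.8 and 70.9 CPM in WT, 123 and 132 CPM in KO1, 116 and 123 CPM in KO2, 78.6 and 81.3 CPM in KO+STAMBP, and 85.8 and 80.1 CPM in the libraries labelled KO+CFLAR. Its log2 change was 0.73 ± 0.05 (edgeR adjusted p = 9.74e-09). STAM2 (ENSG00000115145, chromosome 2, 152116801 to 152175992, minus strand) was at 41.6 and 37.7 CPM in WT, 64.6 and 56.8 CPM in KO1, 60.7 and 61.7 CPM in KO2, 40.6 and 40.0 CPM in KO+STAMBP, and 40.8 and 36.1 CPM in the libraries labelled KO+CFLAR. Its log2 change was 0.63 ± 0.07 (edgeR adjusted p = 9.62e-07). For both genes the knockout libraries lay above the other 6, whose values lay close together (70.9 to 85.8 CPM for STAM and 36.1 to 41.6 CPM for STAM2).

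CLTC (ENSG00000141367, chromosome 17, 59619689 to 59696956, plus strand), the clathrin heavy chain, was the most abundant of the 7 genes and had the smallest error. It was at 565 and 555 CPM in WT, 880.4 and 869.5 CPM in KO1, 856 and 894 CPM in KO2, 453 and 459 CPM in KO+STAMBP, and 465 and 459 CPM in the libraries labelled KO+CFLAR. The knockout libraries were highest, WT lay between, and the 4 libraries labelled as given a gene were lowest, the reverse of the tiers of STAMBPL1. The log2 change in the knockout was 0.64 ± 0.03 (edgeR adjusted p = 3.06e-11).

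**Figure D1:**
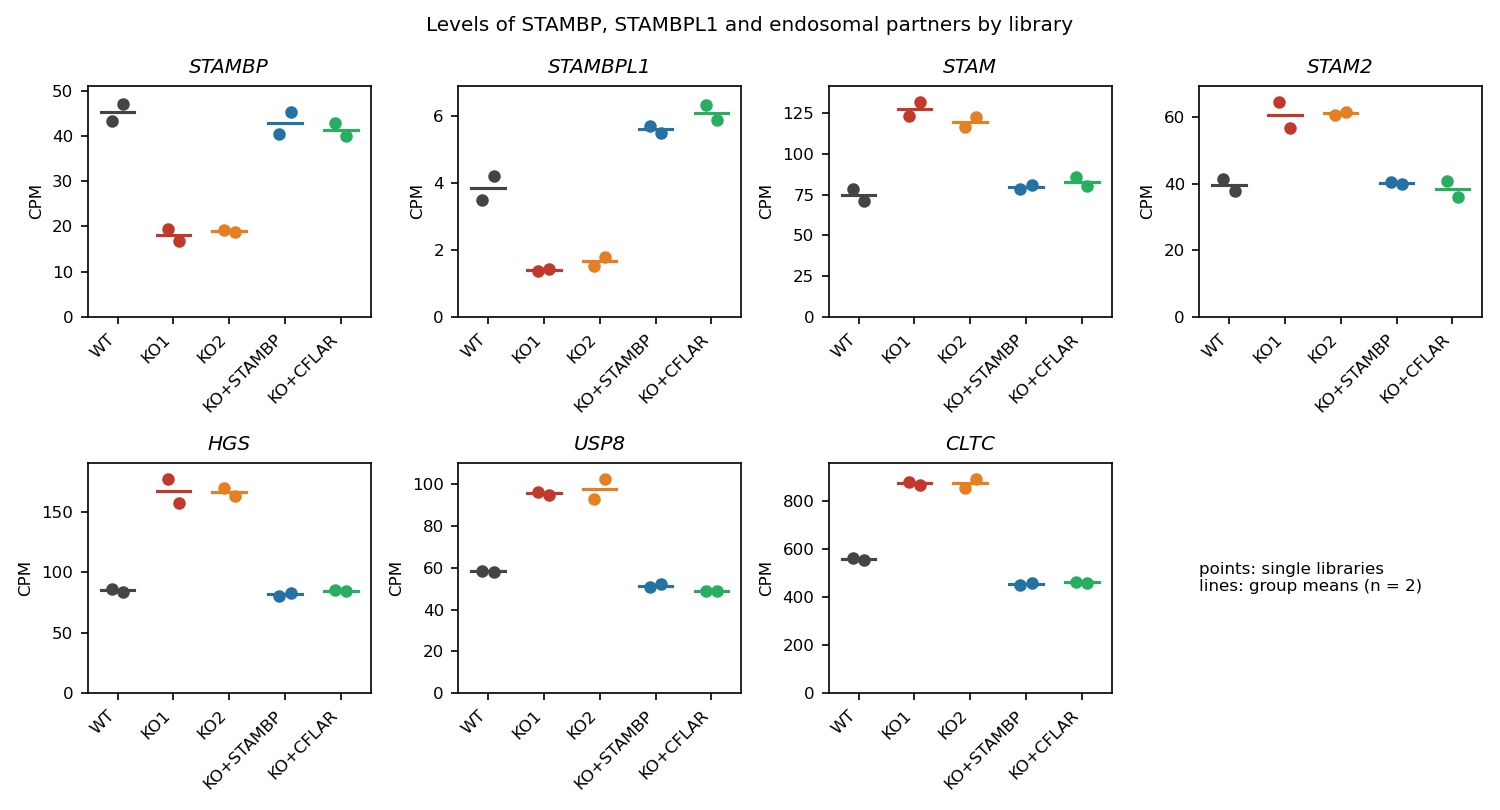
Level of each of the 7 genes in CPM (vertical axes, starting at 0) in the 5 groups, with a point for each library and a line at each group mean (n = 2). The 4 knockout libraries lie below all others for STAMBP and STAMBPL1 and above all others for STAM, STAM2, HGS, USP8 and CLTC. The share of all tested genes that separate in this way was not counted, and 76.2% were called in knockout against WT.

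The second comparison was of the libraries labelled KO+STAMBP and KO+CFLAR with the knockout. All 7 genes moved in the direction opposite to their knockout change, in both sets of libraries. In KO+STAMBP against the knockout, STAMBP and STAMBPL1 were higher and the 5 partners lower, 7 of 7 called beside 77.9% of all tested genes (40.1% higher, 37.8% lower). In the libraries labelled KO+CFLAR the same 7 were called, beside 78.0% of all tested genes (40.0% higher, 38.0% lower). These comparisons use the same knockout libraries as the comparison with WT, so an opposite sign is in part built in.

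STAMBP was 2.30-fold the knockout level in KO+STAMBP (log2 1.20 ± 0.07, edgeR adjusted p = 1.5e-09) and 2.22-fold in the libraries labelled KO+CFLAR (log2 1.15 ± 0.07, edgeR adjusted p = 2e-09). Between the libraries labelled KO+CFLAR and those labelled KO+STAMBP, STAMBP differed by -0.05 ± 0.08 on the log2 scale and a 95% interval of -0.22 to 0.12. STAMBPL1 was 3.67-fold and 3.99-fold the knockout level (log2 1.87 ± 0.18 and 1.997 ± 0.17), the largest change of the 7 genes in either comparison. HGS fell by 1.03 ± 0.05 and 0.97 ± 0.05 on the log2 scale, USP8 by 0.91 ± 0.05 and 0.98 ± 0.05, and CLTC by 0.94 ± 0.03 and 0.92 ± 0.03. STAM fell by 0.63 ± 0.05 and 0.57 ± 0.05, and STAM2 by 0.60 ± 0.07 and 0.67 ± 0.07. The edgeR adjusted p for these values was at most 1.44e-06. The median size of the change was 0.94 and 0.97 over the 7 genes and 0.95 and 0.96 over all tested genes.

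The same libraries were then compared with WT. In KO+STAMBP, 3 of 7 genes were called against WT, beside 34.9% of all tested genes (16.4% higher, 18.5% lower), and in the libraries labelled KO+CFLAR again 3 of 7, beside 33.7% (15.8% higher, 17.9% lower). STAMBPL1, USP8 and CLTC were called in both. STAMBPL1 was at 146% and 159% of WT (log2 0.54 ± 0.19 and 0.66 ± 0.18, edgeR adjusted p = 0.0382 and 0.0125). USP8 was at 88.4% and 83.8% of WT (log2 -0.18 ± 0.06 and -0.26 ± 0.06, edgeR adjusted p = 0.0255 and 0.00278). CLTC was at 81.4% and 82.4% of WT (log2 -0.30 ± 0.03 and -0.28 ± 0.03, edgeR adjusted p = 5.69e-06 and 1.05e-05). Of these, the calls of STAMBPL1 and USP8 in KO+STAMBP did not hold in every alternative: without WT replicate 1 their adjusted p was 0.216 and 0.0949, and without the libraries labelled KO+CFLAR that of STAMBPL1 was 0.0606. The STAMBPL1 call against WT in the libraries labelled KO+CFLAR was also lost without WT replicate 1 (adjusted p = 0.101).

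STAMBP, STAM2, HGS and STAM did not pass the threshold against WT. For STAMBP the log2 difference was -0.08 in KO+STAMBP, with a 95% interval of -0.25 to 0.09, and -0.13 in those labelled KO+CFLAR (interval -0.30 to 0.04). HGS differed by -0.06 (-0.18 to 0.07) and -0.00 (-0.12 to 0.12), and STAM2 by 0.03 (-0.14 to 0.20) and -0.04 (-0.21 to 0.13). STAM differed by 0.10 (-0.03 to 0.23) and 0.15 (0.02 to 0.28), the last at an edgeR adjusted p of 0.0703. These intervals bound the differences and do not show that the levels were alike. STAMBP was thus not called above WT in KO+STAMBP. The label KO+CFLAR names no added STAMBP, yet that group had 2.22-fold the knockout's STAMBP level, beside 2.30-fold in KO+STAMBP. Whether the added gene accounts for the level in KO+STAMBP was not tested. The sources used here do not say whether reads of the added gene were counted.

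**Figure D2:**
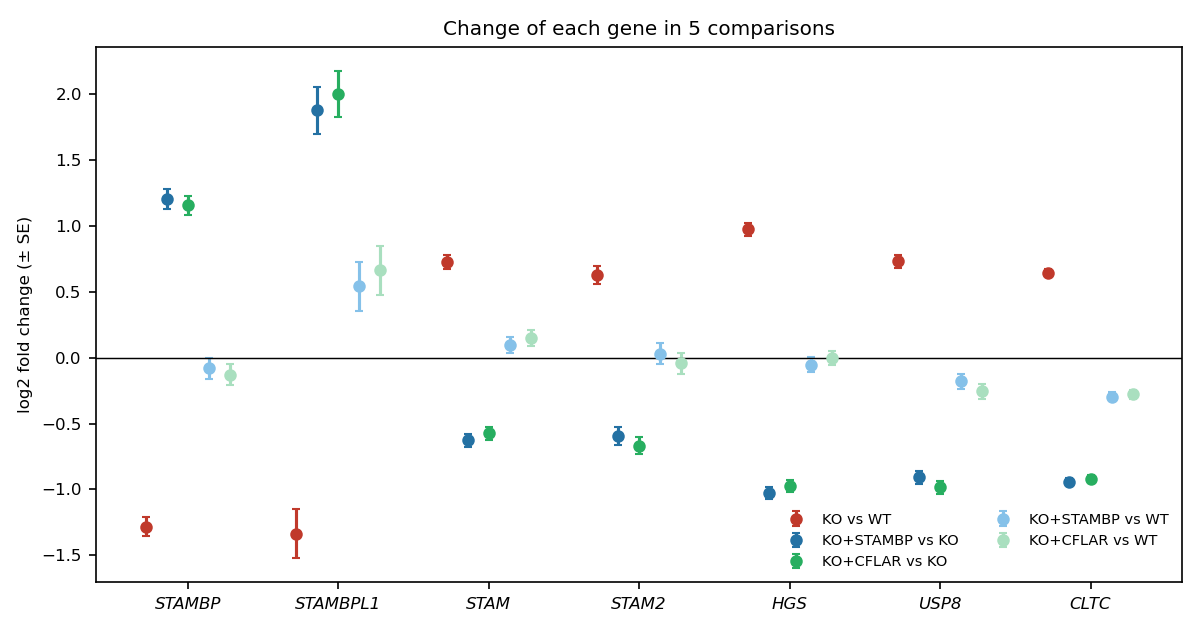
Log2 fold change ± SE (vertical axis) of each gene in 5 comparisons, by colour, from the edgeR fit over all 10 libraries. The red points (knockout against WT) lie opposite to the dark blue and dark green points (libraries labelled as given a gene against the knockout), and the pale points (against WT) lie within 0.30 of 0 for all genes other than STAMBPL1.

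Between KO1 and KO2, 0 of 7 genes were called by edgeR (0 at an unadjusted p under 0.05, and 0 by DESeq2 in either way), beside 0.157% of all tested genes. Between the libraries labelled KO+CFLAR and those of KO+STAMBP it was again 0 of 7 in each of these counts, beside 1.09% of all tested genes. The widest interval was that of STAMBPL1, from -0.80 to 0.31 between the lines and from -0.26 to 0.51 between the groups labelled as given a gene. That of CLTC ran from -0.07 to 0.07 and from -0.05 to 0.09.

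Ratios of counts within a library need no scaling between libraries, so the balance of the genes was also taken that way. The 15 tests on 5 ratios were exact two-sided permutation tests of 2 libraries against 4, which cannot give a p below 0.0667. After Benjamini-Hochberg adjustment over the 15, the lowest value obtained was 0.0909. STAMBPL1 counts per 100 STAMBP counts were 8.05 and 8.91 in WT and 7.04, 8.49, 7.93 and 9.48 in the knockout, with overlap of the groups (exact p = 0.733, adjusted p = 0.786). The ratio was 14.2 and 12.2 in KO+STAMBP and 14.8 and 14.7 in the libraries labelled KO+CFLAR, above every WT and knockout library (exact p = 0.0667 for each against the knockout). The higher ratio there goes with STAMBPL1 levels above WT at STAMBP levels near WT.

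Within ESCRT-0, STAM plus STAM2 counts per 100 HGS counts were 139 and 130 in WT and 106, 120.2, 105 and 113 in the knockout. They were 148 and 146 in KO+STAMBP and 148 and 138 in the libraries labelled KO+CFLAR. All 4 knockout libraries were below the other 6 (exact p = 0.0667 in each of the 3 comparisons). STAM2 per 100 STAM counts was 52.7 and 53.2 in WT and 43.0 to 52.4 in the knockout, with overlap of the knockout and the libraries labelled as given a gene, at 45.1 to 51.7 (exact p = 0.4 for the knockout against WT). Between the 2 deubiquitinases that bind STAM, STAMBP counts per 100 USP8 counts were 74.0 and 81.5 in WT, 17.8 to 20.7 in the knockout and 79.8 to 87.6 in the libraries labelled as given a gene. STAMBP counts per 100 HGS counts were 50.2 and 56.4 in WT, 10.7 to 11.6 in the knockout and 47.5 to 54.5 in the libraries labelled as given a gene. Both ratios had an exact p of 0.0667 in all 3 comparisons.

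**Figure D3:**
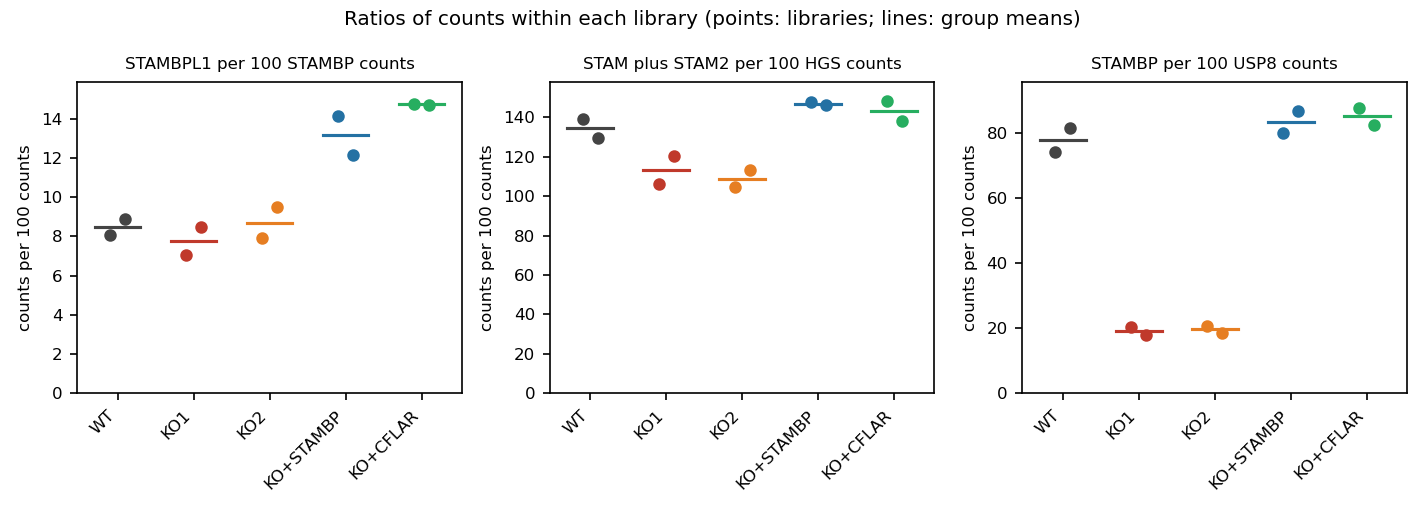
Counts of a gene per 100 counts of another within each library (vertical axes from 0), with a point per library and a line at each group mean. STAMBPL1 per 100 STAMBP overlaps between WT and knockout and is at 12.2 to 14.8 in the libraries labelled as given a gene, STAM plus STAM2 per 100 HGS is lowest in the knockout, and STAMBP per 100 USP8 falls from 74.0 and 81.5 in WT to 17.8 to 20.7.

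Levels of different genes were compared per length. Per kilobase of coding sequence, CLTC was at 111 ± 1.37 CPM in WT, STAM at 46.1 ± 3.46, HGS at 36.4 ± 0.816, STAMBP at 35.5 ± 2.13, STAM2 at 25.1 ± 1.73, USP8 at 17.4 ± 0.149 and STAMBPL1 at 2.78 ± 0.364 CPM (n = 2). HGS and STAMBP, neighbours in that order, differed by less than their spread in WT. In the knockout, HGS was at 71.3 ± 3.61, STAM2 at 38.6 ± 2.06, USP8 at 28.7 ± 1.24 and STAMBP at 14.6 ± 0.937 CPM per kilobase of coding sequence (n = 4). STAMBP thus went from above STAM2 and USP8 in WT to below both in the knockout on this scale. Per kilobase of all annotated exons, the WT order of the 7 genes was the same, from CLTC at 47.3 ± 0.582 CPM to STAMBPL1 at 0.609 ± 0.0798 CPM. On that scale STAMBP, at 5.88 ± 0.352 CPM, and STAM2, at 5.66 ± 0.389 CPM, were within their spread of each other in WT.

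The genes around each locus give a view of how far the changes were shared with neighbours or overlapping transcripts, since the sources used here give no strand setting for the counting. No annotated gene overlaps STAMBP. Its nearest tested protein-coding neighbour at lower coordinates, DUSP11, an RNA phosphatase, went from 15.7 ± 0.774 CPM in WT to 38.8 ± 0.563 CPM in the knockout (log2 1.30 ± 0.07, edgeR adjusted p = 2.67e-10), opposite to STAMBP. The neighbour on the other side, ACTG2, had 0.112 CPM in WT against 0.544 CPM in the knockout. ACTA2, smooth muscle actin, lies on the opposite strand across 40080 bases of STAMBPL1 but shares 0 exonic bases with it. It rose from 5.12 ± 0.987 to 22.4 ± 1.89 CPM in the knockout (log2 2.11 ± 0.14, edgeR adjusted p = 2.32e-09) while STAMBPL1 fell. ANKRD22, next to STAMBPL1, went from 0.0291 ± 0.0412 CPM in WT to 18.5 ± 1.01 CPM in the knockout.

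HGS is the gene whose counts overlapping transcripts could touch most, with 20.4% of its 50-base words also present in other genes' transcripts. The largest exonic overlaps were with the antisense genes AC139530.1, of 945 bases, and AC139530.3, of 690 bases, which did not pass the filter on low counts, and with ARL16, of 303 bases. AC139530.1 was at 4.90 ± 0.639 CPM in WT against 2.82 ± 0.80 CPM in knockout libraries, and ARL16 fell from 40.0 ± 2.06 to 29.8 ± 0.702 CPM (log2 -0.43 ± 0.06, edgeR adjusted p = 8.05e-06). Both had lower counts than HGS and moved the other way. USP8 shared 6.26% of its words, the most with USP50, which overlaps it on the opposite strand. USP50 was at 1.55 ± 0.115 CPM in WT against 1.72 ± 0.452 CPM in knockout libraries and was not called (edgeR adjusted p = 0.66). CLTC shared 1.35% of its words, nearly all with PTRH2, a mitochondrial peptidyl-tRNA hydrolase at 10.6 ± 0.0139 CPM in WT against 16.8 ± 1.60 CPM in knockout libraries (log2 0.66 ± 0.11, edgeR adjusted p = 5.7e-05). DHX40, on the other side of CLTC, fell from 142 ± 1.51 to 72.2 ± 2.86 CPM (log2 -0.98 ± 0.04, edgeR adjusted p = 6.25e-12). Next to STAM2, the calcium channel subunit gene CACNB4 fell from 21.3 ± 0.579 to 2.03 ± 0.473 CPM and FMNL2 from 165 ± 6.60 to 118 ± 1.22 CPM. The genes beside STAM, HACD1 and TMEM236, were at 3.93 ± 0.783 and 0.853 ± 0.384 CPM in WT and at 7.09 ± 0.706 and 2.53 ± 0.693 CPM in the knockout.

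Promoter sequence was taken from RefSeq (GRCh38.p14), as the 250 bases before the annotated start, and was found for 6 of the 7 genes, all but STAMBP. Of the 250 bases, GENCODE places 250 in exons of the same gene for STAMBPL1, 229 for STAM2 and 206 for CLTC. For HGS it was 79, for STAM 26 and for USP8 25. Of the 5 motifs searched, TGACGT was the least frequent over all promoters among those found here, in HGS and USP8 but not in STAM, STAM2 or CLTC, which rose too. It is shown in capitals with 12 bases on each side:
HGS, chr17:81683945-81683974, plus strand: gggccggcgcggTGACGTgcgcgtgcgcgc
USP8, chr15:50424339-50424368, plus strand: ccgcccctgccgTGACGTctggagacgcga
Both matches of TGACGT, the core of the cAMP response element, begin 54 bases before the RefSeq start. The HGS stretch lies in an exon of another HGS transcript in GENCODE, and the USP8 stretch in none of that gene. Searched on both strands, TGACGT occurred in 7.42% of all 27305 promoters of that length, in 2 of the 6 here. The USP8 promoter up to its first annotated exon base, chr15:50424155-50424379 on the plus strand, is shown as an example of a whole window outside the gene's annotated exons, with TGACGT and the GC box GGGCGG (or CCGCCC on the other strand) in capitals:
USP8: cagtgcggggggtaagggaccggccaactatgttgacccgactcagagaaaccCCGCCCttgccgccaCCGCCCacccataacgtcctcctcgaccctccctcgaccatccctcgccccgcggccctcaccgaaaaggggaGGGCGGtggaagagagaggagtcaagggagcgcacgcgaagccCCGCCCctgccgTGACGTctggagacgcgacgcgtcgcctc
GGGCGG on either strand was found in 4 of the 6 promoters, those of STAMBPL1, which fell, and of HGS, USP8 and CLTC, which rose, and in 42.3% of all promoters. CCAAT was found 3 times in HGS and in 33.0% of all promoters. CACGTG and TGAGTCA were in 0 of the 6, and in 6.49% and 4.16% of all promoters. A match is a run of letters only, and binding was not measured.

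The wider sorting route was then read from lists of genes by role. The lists are described by counts and medians, beside the 36.8% higher and 39.4% lower calls over all tested genes. Of 10 other JAMM and related MPN-domain genes, 6 were higher and 3 lower in the knockout (median log2 0.10), but with library size alone as the scaling 4 were higher and 5 lower and the median was -0.08. That scaling moved the median of all tested genes from -0.04 to -0.22, and it turned none of the 7 members' directions. By library size alone, 6646 of the 21063 tested genes were called higher and 9450 lower, against 7750 and 8305 with TMM scaling. The library-size counts of the lists below, in knockout against WT, stand beside these values. PSMD7, a proteasome lid subunit, rose from 84.0 ± 0.197 to 131 ± 0.822 CPM (log2 0.65 ± 0.04, edgeR adjusted p = 2.11e-09). EIF3H, a translation initiation factor subunit, and BRCC3, which cuts the same ubiquitin linkage as STAMBP, rose by less, at log2 0.44 ± 0.04 and 0.41 ± 0.06. MPND fell from 15.9 ± 0.492 to 7.50 ± 0.564 CPM (log2 -1.08 ± 0.11).

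Of 20 ESCRT-0-like proteins and clathrin adaptors, 11 were higher and 3 lower (median log2 0.28, or 10 and 7 with median 0.11 by library size alone). TOM1, an endosomal adaptor that binds ubiquitin and clathrin as HGS does, rose from 20.3 ± 0.105 to 51.3 ± 1.71 CPM (log2 1.34 ± 0.06, edgeR adjusted p = 6.57e-11). PICALM, a clathrin assembly protein, went from 137 ± 1.17 to 237 ± 7.41 CPM, and the light chain CLTA from 98.1 ± 5.24 to 166 ± 5.21 CPM (log2 0.76 ± 0.04), close to the 0.64 ± 0.03 of CLTC. CLTCL1, the second clathrin heavy chain gene, fell from 12.5 ± 0.891 to 3.27 ± 0.221 CPM (log2 -1.93 ± 0.12, edgeR adjusted p = 1.16e-09) while CLTC rose. The clathrin heavy chain genes thus moved apart, where STAMBP and STAMBPL1 both fell.

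Of 29 genes of ESCRT-I, II and III and the VPS4 ATPases, which act after ESCRT-0, 20 were higher and 5 lower (median log2 0.35, or 15 and 7 by library size alone). CHMP1B, an ESCRT-III subunit to which the microtubule-interacting domain of STAMBP binds, rose from 52.9 ± 0.537 to 209.9 ± 1.55 CPM (log2 1.99 ± 0.05, edgeR adjusted p = 1.29e-14). VPS4B, an ATPase that takes ESCRT-III apart, rose from 42.4 ± 0.358 to 151 ± 5.29 CPM (log2 1.83 ± 0.06). CHMP4C went from 0.433 ± 0.128 to 29.5 ± 1.28 CPM, and MVB12B, an ESCRT-I subunit, fell from 91.6 ± 2.93 to 12.7 ± 1.43 CPM (log2 -2.84 ± 0.07). In KO+STAMBP against the knockout 4 of the 29 were higher and 20 lower, beside 40.1% and 37.8% of all tested genes. By library size alone it was 8 and 18, beside 9836 and 6708 of the 21063 tested genes. In the libraries labelled KO+CFLAR 4 were higher and 21 lower, beside 40.0% and 38.0% of all tested genes. By library size alone these were 6 and 18, beside 9782 and 6803 of the 21063 tested genes.

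Of 8 ubiquitin ligases that mark receptors for this route or act on USP8, 4 were higher and 2 lower (median log2 0.63, unchanged with CBLC at its bound, or 4 and 4 with median 0.46 by library size alone). ITCH rose from 83.9 ± 4.10 to 208 ± 5.59 CPM and NEDD4 from 24.8 ± 3.19 to 106.6 ± 4.74 CPM. RNF128 rose from 0.584 ± 0.00342 to 8.97 ± 0.716 CPM. CBLC, singled out after its values were seen, had 0 counts in WT and 3.41 ± 0.230 CPM in the knockout, at least 21.2-fold higher against a floor of 3 counts per library. CBL, the ligase of activated EGF receptor, was at 153 ± 7.14 CPM in WT, 124 ± 3.83 CPM in the knockout (log2 -0.31 ± 0.05) and 105 ± 0.766 CPM in KO+STAMBP, lower there than in the knockout.

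Among 10 receptors listed here for this route, 7 were higher and 3 lower in the knockout, also by library size alone (median log2 1.64, or 1.47). Whether each of the 10 is sorted to the lysosome was not tested. EGFR rose from 17.4 ± 1.92 to 260.2 ± 7.34 CPM (log2 3.91 ± 0.06, edgeR adjusted p = 1.17e-16) and ERBB3 from 1.32 ± 0.350 to 142 ± 4.88 CPM. CXCR4, a chemokine receptor degraded through this pathway, fell from 49.0 ± 0.184 to 3.18 ± 0.287 CPM (log2 -3.95 ± 0.08) and was at 69.8 ± 0.838 CPM in KO+STAMBP. FGFR1 fell from 420.3 ± 6.20 to 84.7 ± 1.86 CPM (log2 -2.31 ± 0.03) and stood at 136 ± 0.833 CPM in KO+STAMBP and 128 ± 3.23 CPM in the libraries labelled KO+CFLAR, well under WT in both. The changes of these 4 receptors were larger in size than those of any of the 7 genes. They were named for a low adjusted p in this same comparison, so their size is in part set by that choice. Of the receptors not named above, PDGFRB (log2 -1.15), ERBB2 (1.28) and IGF1R (1.37) changed about as much as STAMBP (-1.28) and STAMBPL1 (-1.33). MET, PDGFRA and TFRC changed by more than any of the 7 genes. In KO+STAMBP and the libraries labelled KO+CFLAR, FGFR1 and the progenitor marker sum were under WT, and the neuron marker sum was above it. The epithelial, neuron, progenitor and mesenchymal marker sums given above also differed between knockout and WT. Their part in these changes was not tested.

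**Figure D4:**
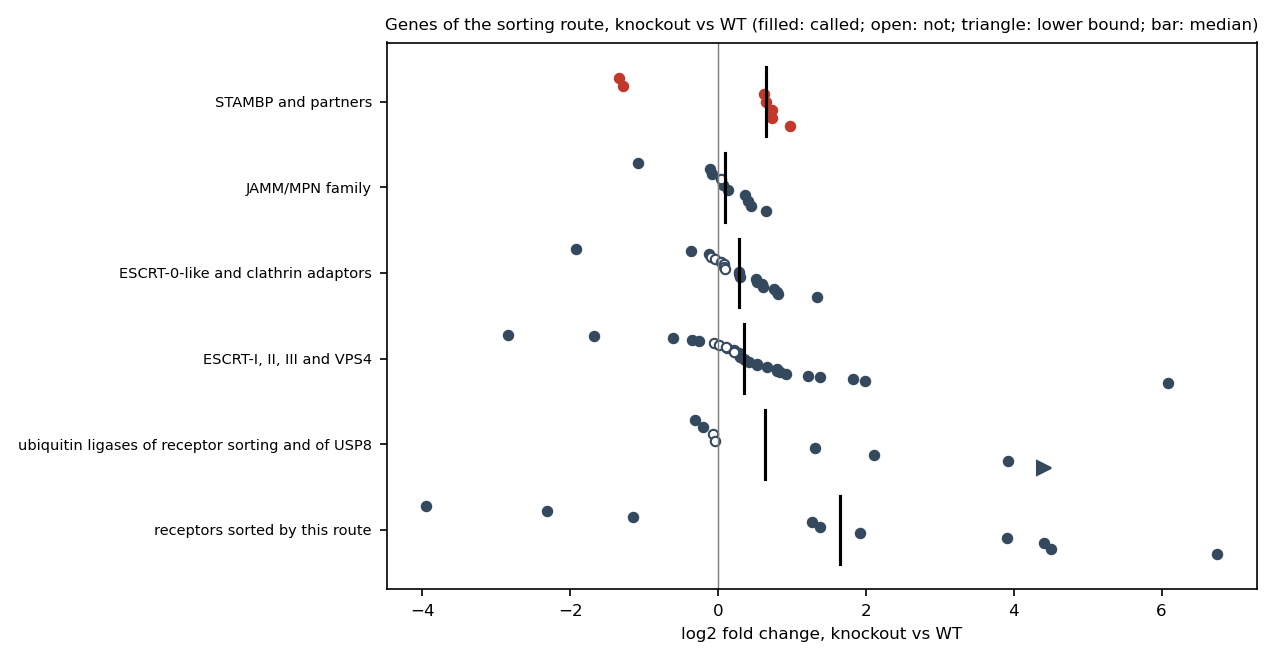
Log2 fold change in knockout against WT (horizontal axis) of the 7 genes (red) and of the genes on 5 lists of the sorting route, with filled points called at adjusted p under 0.05, open points not called, a triangle for CBLC at its lower bound and a bar at each list's median. The 7 genes lie between -1.33 and 0.97, while the receptors reach from -3.95 to 6.76, and the JAMM list's median of 0.10 is -0.08 by library size alone.

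Last, genes with the pattern most like those of STAMBP and STAMBPL1 were taken by the Pearson correlation of log2 CPM over the 10 libraries, among 15599 genes with a mean of at least 2 CPM. This is a measure of likeness only, since the 4 knockout libraries stand apart from the other 6 and all genes share the same libraries. For STAMBP, 30.2% of these genes had a value of at least 0.9 and 29.7% a value of at most -0.9, and for STAMBPL1 it was 27.1% and 28.1%. The 5 nearest to STAMBP were RGL1, CBX1, NUP93, TARS3 and SPSB4, at 0.995 to 0.996. CBX1, a heterochromatin protein, was at 266 CPM in WT, 78.1 CPM in the knockout and 241 CPM in KO+STAMBP. The 5 nearest to STAMBPL1 were ZNF764, MLLT3, ZNF589, B3GAT2 and TMEFF2, at 0.995 to 0.998. MLLT3, a subunit of the super elongation complex, was at 41.6 CPM in WT, 17.3 CPM in the knockout, 54.6 CPM in KO+STAMBP and 57.3 CPM in the libraries labelled KO+CFLAR, the same tiers as STAMBPL1. STAMBP and STAMBPL1 had a value of 0.937 with each other, below all 10 of these nearest genes.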

How the data were processed

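RNA of 10 libraries was prepared with Trizol and an Illumina TruSeq kit from 1 µg of total RNA, per the labels' protocols. The deposited values are whole-number counts of reads for each gene row, per the file headers and values. The submitters' processing notes list the build as hg38 and as GRCh38, and as tools DESeq2, RSEM 1.2.4 and fastp 0.20.0. Their order, the strand setting and any rounding are unstated in the sources used here. The table held 0 columns of other samples. Some rows, those of STAM, STAM2, USP8 and CLTC among them, carry an assembled-locus name beside the Ensembl identifier.

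Counts were fitted with edgeR 4.0.16 in R 4.3.3 (TMM factors, filterByExpr, a mean per group, 5 residual degrees of freedom), with Benjamini-Hochberg adjustment over 21063 genes, which held 99.9% of the counts. The script was tested on simulated data in which few genes changed. That test does not bear on the scaling of these data, where 76.2% were called in knockout against WT. The knockout is the equally weighted mean of KO1 and KO2. Members, lists and named genes (up to 4 per list by adjusted p at 2 CPM or more, locus neighbours, 5 nearest patterns) were chosen with earlier results of these data known. Replicate numbers did not pair the libraries. Libraries of a group differed beyond sampling noise (chi-square 1.94 to 3.51 per gene). Positions are from GENCODE release 29. Alternatives were DESeq2 1.42.0, other scalings, filters and baselines, a replicate block, libraries left out, summed paralog rows and plain library size.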

Additional observations from a re-analysis of the deposited data

How the results depend on the processing

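In knockout against WT and in each group labelled as given a gene against the knockout, all 7 genes kept their direction and their call in every alternative run. Over all comparisons, 883 of 904 gene values kept direction and side of the threshold, 16 lost the call, 5 gained one and 0 reversed. The count of genes called in KO+STAMBP against WT was 3, and 1 to 3 with a library left out: it was 1, CLTC, without WT replicate 1, without KO+STAMBP replicate 1 or without KO+STAMBP replicate 2. A library left alone in its group was given the spread of the others by assumption. Fewer of all tested genes were called in these fits too, so the fall is not particular to the 7 genes. STAMBPL1 was called there in 10 of 18 fits (adjusted p 0.0273 to 0.216, DESeq2 0.133) and USP8 in 13 (0.0149 to 0.154). In the libraries labelled KO+CFLAR against WT, STAMBPL1 was called in 14 of 17 (0.00991 to 0.101) and STAM in 5 (0.0262 to 0.496). With STAMBP and STAMBPL1 rows summed, the knockout change was -1.29 ± 0.07. Same-numbered libraries correlated at -0.03 to 0.08 over 10 group pairs, and with the replicate block all 7 genes were again called in knockout against WT and 3 in KO+STAMBP against WT. Leaving out the libraries labelled KO+CFLAR was chosen after seeing the data. Plain library size moved 25 of 35 group levels by more than their SD. STAMBPL1 had the lowest depth of the 7 genes, at 22 to 136 counts per library.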
